A study of Mus musculus with 12 samples.

Results

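The comparison described here is that of midostaurin with vehicle in CT26 tumors, across all genes. CT26 is a mouse colorectal cancer line, and the tumors were grown under the skin of mice. The 6 tumor libraries of the 12 in the series were taken by their labels, 3 from vehicle-treated and 3 from midostaurin-treated tumors. The treated group received the drug at 40 mg/kg from day 7 after inoculation for 2 weeks. The labels used here give no strain, sex, age or number of mice, list only a wild-type genotype, and do not say whether the 3 tumors of a group came from separate animals. The p-values therefore measure the spread between these libraries. The labels number the treated tumors 1 to 3, whereas the value columns number them 2 to 4, so the last of these is called midostaurin tumor 4 and could not be tied to a numbered label.

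Midostaurin is an oral inhibitor of several kinases, among them the receptor tyrosine kinases FLT3 and KIT and the isoforms of protein kinase C, and is used in acute myeloid leukemia and systemic mastocytosis. A transplanted tumor holds cancer cells together with macrophages, other immune cells, vessels and fibroblasts of the host, all of which can meet the drug. Its RNA is a mixture of these cells, so fewer cells of a type and less RNA per cell cannot be told apart.

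Each tumor library held 33399701 to 48109497 counts over 21382 to 22145 detected genes, and 16094 genes passed the filter on low counts. The first principal component (36.0% of the variance) placed the vehicle tumors between -32.2 and -17.3 and the midostaurin tumors between 10.4 and 34.6. The second (27.4%) spread each group, with vehicle tumor 1 at 22.1 and midostaurin tumors 2 and 3 at -32.2 and 34.1. Of the line's listed markers, Hmga2, a chromatin protein abundant in cultured CT26 cells, measured 527 to 788 CPM (counts relative to the TMM-scaled library total) in the 6 tumors, while the epithelial genes Epcam (0 to 2.41 CPM), Krt8 (0.202 to 3.85 CPM) and Krt18 (2.85 to 12.9 CPM) were low in all of them. Single libraries stood apart in host tissue. Skin epithelium markers summed to 964 CPM in vehicle tumor 2 and at most 1.90 CPM elsewhere. Red cell markers summed to 1956 CPM in vehicle tumor 1 against 16.6 to 447 CPM in the rest, while neutrophil markers reached 915 CPM in midostaurin tumor 3 against 42.5 to 88.3 CPM in the other 5. In the plot of summed markers the skin and neutrophil libraries lie far from the other 5 on their row. The red cell sums were more graded, with vehicle tumor 3 next at 447 CPM and midostaurin tumor 3 at 115 CPM.

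**Figure D1:**
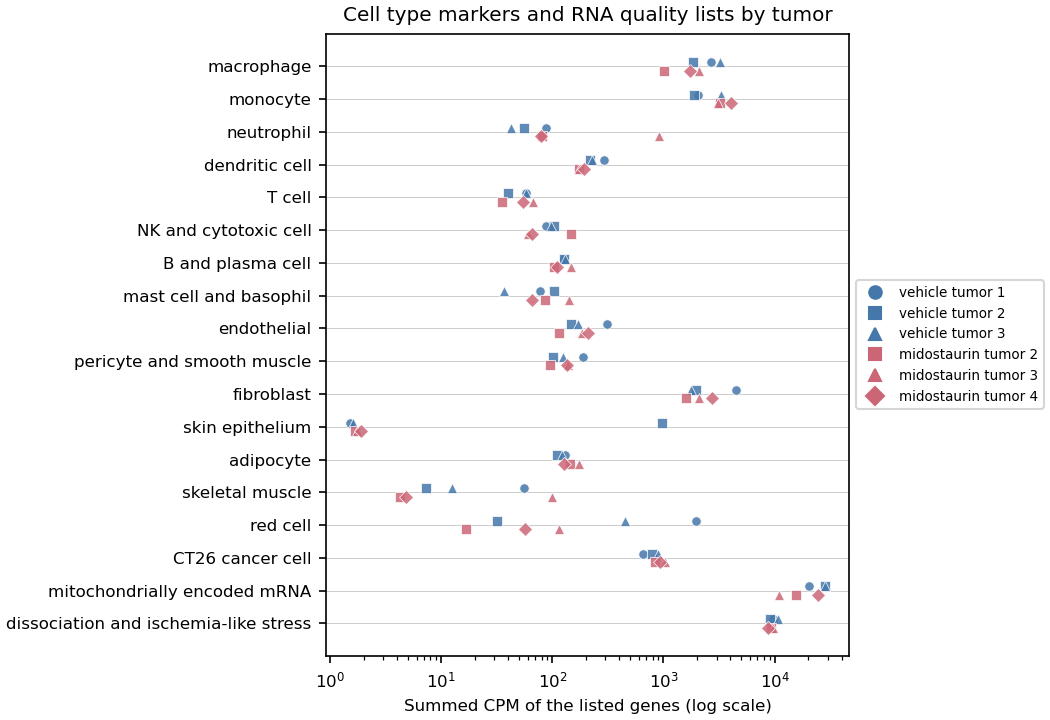
Summed CPM (log scale) of each cell type marker or RNA quality list in the 6 tumors, with vehicle tumors in blue above and midostaurin tumors in red below each line. Vehicle tumor 2 stands alone for skin epithelium, midostaurin tumor 3 for neutrophils, and the dendritic cell sums do not overlap between the groups (216 to 294 CPM with vehicle and 174 to 192 CPM with midostaurin). Most of those sums was Fscn1 alone (223.8, 163.7 and 171.3 CPM against 128.1, 118.8 and 136.8 CPM). Of the 10 dendritic cell markers tested, 7 had a log2 fold change above 0 and 3 below, with a median of 0.48. The 3 with a mean of at least 5 CPM had a median of -0.48.

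Nested counts describe how far the groups differed. By edgeR's quasi-likelihood test with Benjamini-Hochberg adjustment at 0.05, 7 genes changed, or 0.0435% of those tested, 5 upward and 2 downward, and 3205 genes had an unadjusted p below 0.05. In 2180 genes (13.5%) all 3 midostaurin tumors lay above all 3 vehicle tumors, and in 2196 genes (13.6%) they all lay below. A gene is said below to hold without any single tumor when, in addition, its unadjusted p stayed below 0.05 with the same sign in the fit of all tumors and in each of the 6 fits that leave 1 tumor out. This was so for 864 genes that were higher with midostaurin (5.37%) and 642 that were lower (3.99%). Together they were 9.36% of the genes tested, and the counts of list members that hold below are to be read against these shares. The genes that hold were selected on this contrast, so their values are given as a description. Their adjusted p (edgeR) ran from 0.0377 to 0.177 among the higher and up to 0.164 among the lower, which means that all but the 7 missed the threshold.

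Most of these differences were moderate in size. Among the 864 higher genes the median log2 fold change was 0.52, and 195 exceeded a 2-fold and 43 a 4-fold difference. Among the 642 lower genes the median was -0.58, and 164 exceeded a 2-fold and 28 a 4-fold difference. DESeq2, run as an alternative, called 778 and 525 of them at its own adjusted p of 0.05.

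The 5 genes that rose and the 2 that fell had no overlap between the groups. Hivep1, a large zinc finger protein that binds kB-like enhancer sites (chromosome 13, 42052021 to 42192537, mm10), measured 43.7, 45.7 and 44.6 CPM with vehicle and 78.9, 76.8 and 75.5 CPM with midostaurin, and its log2 fold change stayed between 0.77 and 0.82 whichever tumor was left out. Csrp2, a LIM-domain protein of the actin cytoskeleton, measured 27.3, 36.7 and 39.0 CPM against 110.3, 107.2 and 104.9 CPM. Thbs2, which encodes thrombospondin-2, a secreted inhibitor of vessel growth, measured 122.6, 105.5 and 148.4 CPM against 582, 776 and 471 CPM. In each of these genes the 2 groups are separated by more than the whole range of the vehicle tumors. Il7, a cytokine that sustains lymphocytes, and Lxn, the carboxypeptidase inhibitor latexin, rose as well, with log2 fold changes that ranged from 2.08 to 2.35 and from 1.53 to 1.78 over the fits without 1 tumor.

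Sncg, which encodes gamma-synuclein, fell by 2.07 on the log2 scale, from 13.7, 16.1 and 21.1 CPM to 3.98, 4.00 and 4.18 CPM. Ak5, an adenylate kinase that interconverts adenine nucleotides, fell from 38.3, 31.5 and 31.9 CPM to 13.2, 14.6 and 15.03 CPM. All 7 genes had adjusted p = 0.0377 (edgeR). That call depended on the number of tumors, since over the 7 genes and the 6 fits without 1 tumor the adjusted p (edgeR) ranged from 0.0409 to 0.200, and only Csrp2, without vehicle tumor 1, stayed below 0.05.

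Next to these, the genes that hold and had the widest gap between the nearest tumors of the 2 groups include several regulators and transporters that were higher with the drug. The gap is measured on log2(CPM + 0.5), the scale of the plot of single genes. Mfap3l, a membrane protein related to a microfibril-associated glycoprotein (chromosome 8, 60632827 to 60676729, mm10), had the widest, with 1.04, 3.49 and 2.53 CPM against 21.8, 14.1 and 13.7 CPM, or 2.81 ± 0.44 (SE) as a log2 fold change, with adjusted p = 0.0841 by edgeR. Fat2, an atypical cadherin, measured 5.402, 3.89 and 3.81 CPM against 23.0, 14.5 and 20.4 CPM. Both genes were therefore low in every vehicle tumor.

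Abca1, which exports cholesterol from cells to apolipoproteins (chromosome 4, 53030787 to 53159895), measured 28.3, 25.8 and 30.3 CPM with vehicle and 80.7, 134.6 and 80.2 CPM with midostaurin. Slc1a2, a glutamate transporter, measured 6.27, 34.5 and 33.3 CPM against 98.8, 163 and 122.3 CPM, so vehicle tumor 1 lay below the other vehicle tumors. Ces1f, a carboxylesterase, was near 1 CPM in each vehicle tumor (0.913, 1.11 and 1.05 CPM) and varied most with the drug, at 34.5, 3.42 and 8.86 CPM. Its log2 fold change of 3.93 came down to 2.58 without midostaurin tumor 2. Fam213a, a redox-regulating protein, and Cavin4, a coat protein of muscle caveolae, measured 2.06 ± 0.289 against 10.5 ± 3.42 CPM and 4.38 ± 1.49 against 15.2 ± 2.44 CPM (mean ± SD, n = 3 each). The potassium channel beta subunits moved apart, with Kcnab1 higher (2.45 ± 0.743 against 11.8 ± 7.75 CPM) and Kcnab2 lower (68.2 ± 10.1 against 23.8 ± 4.51 CPM, SD, n = 3 each). Exons of Kcnab2 overlap the predicted gene Gm16334 on the same strand, so its counts are less certain.

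The lower genes with a wide gap included receptors, junction proteins and transporters. Ptk7, a catalytically inactive receptor kinase of Wnt and planar polarity signalling (chromosome 17, 46564471 to 46629504), measured 43.1, 35.6 and 34.7 CPM against 11.4, 8.33 and 17.5 CPM. Cldn9, a tight junction claudin, measured 19.96, 15.3 and 21.0 CPM against 8.04, 5.15 and 7.02 CPM. Ppl, which encodes the desmosomal linker periplakin, measured 13.3, 23.3 and 5.95 CPM against 2.72, 0.515 and 1.96 CPM, and its highest value was in vehicle tumor 2, the tumor with skin transcripts. Without that tumor the log2 fold change of Ppl was still -2.45. Cdk18, a cyclin-dependent kinase, and Slc38a4, an amino acid transporter, measured 17.5 ± 2.92 against 5.04 ± 1.57 CPM and 26.9 ± 2.99 against 12.5 ± 1.62 CPM (SD, n = 3 each). Ccnb1ip1, a ubiquitin ligase of meiotic crossover, was lower too (8.50 ± 1.09 against 2.52 ± 0.503 CPM), but shares exons with the RNase P RNA gene Rpph1 on the same strand.

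**Figure D2:**
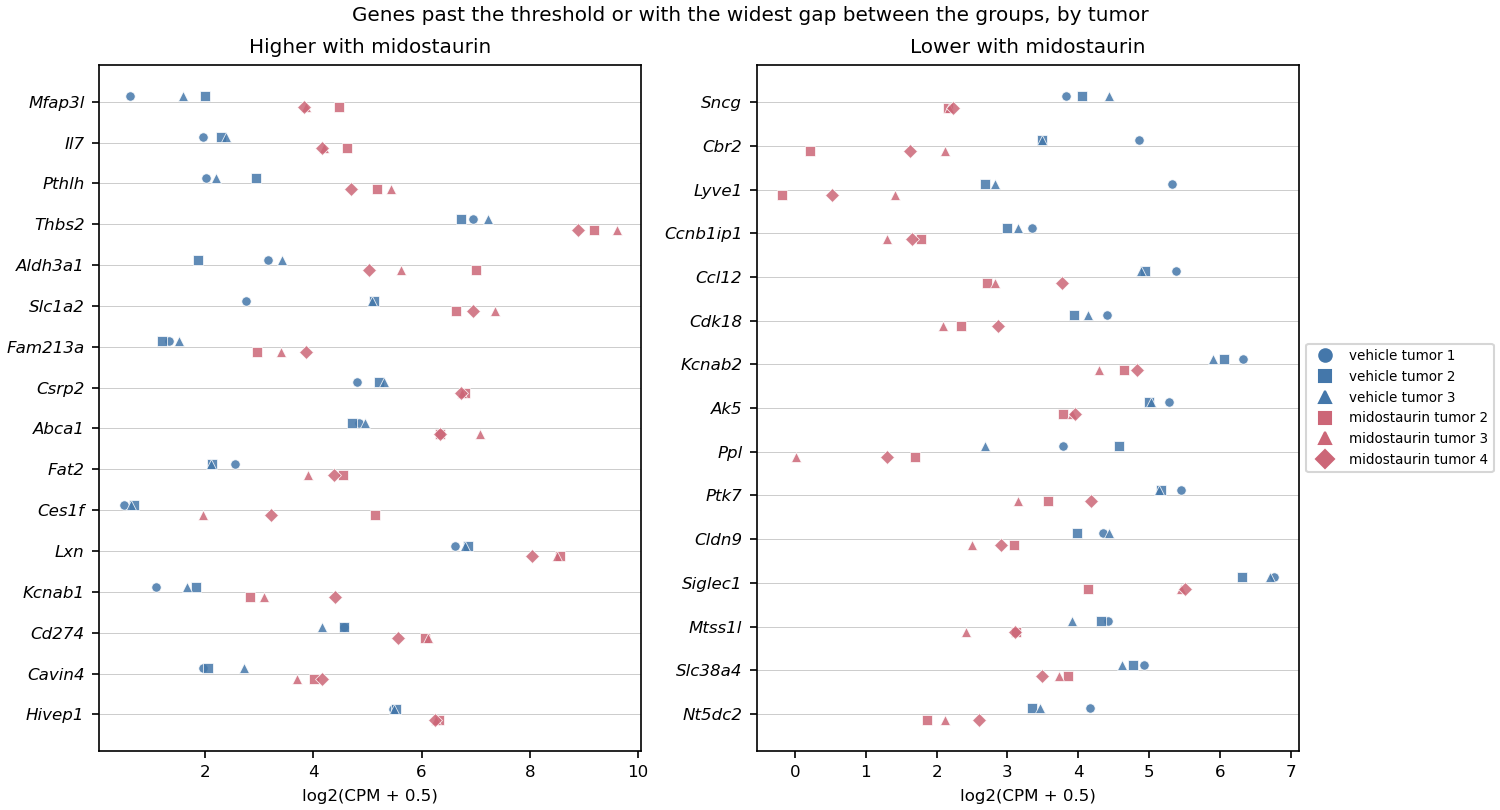
Level in each tumor, as log2(CPM + 0.5), of the genes past the threshold and of the 15 genes per direction with the widest gap between the groups, with vehicle in blue and midostaurin in red. In each row the 3 red points lie on one side of the 3 blue points, most widely for Mfap3l on the left and Sncg on the right, while the midostaurin tumors differ among themselves for Ces1f and Cbr2.

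Genes of the interferon-gamma response were mostly higher in treated tumors. Interferon-gamma acts on cells to raise antigen presentation, guanylate-binding proteins and checkpoint ligands. Of the 30 members tested, 29 had a log2 fold change above 0, 9 of which hold without any single tumor, and 1, Irf8, was lower and holds. Members that hold were 33.3% of the list, against 9.36% of all genes tested. The median of the list was 0.74, between 0.49 (without midostaurin tumor 2) and 0.90 over the fits without 1 tumor, against -0.01 over all genes tested. None of the 30 passed the threshold.

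The checkpoint genes Cd274, Pdcd1lg2 and Ido1 stood among these. Cd274, which encodes PD-L1, measured 23.3, 23.1 and 17.5 CPM with vehicle and 66.5, 68.6 and 46.7 CPM with midostaurin, or 1.51 ± 0.18 (SE) as a log2 fold change, with adjusted p = 0.0672 by edgeR. Pdcd1lg2, which encodes PD-L2, measured 0.469, 0.423 and 0.547 CPM against 1.21, 3.79 and 4.49 CPM. Ido1, which breaks down tryptophan, measured 1.85, 2.22 and 2.03 CPM against 9.22, 4.00 and 6.81 CPM. All 3 were thus uniformly low with vehicle and more spread with the drug. The immune checkpoint list as a whole did not follow, with 12 of 23 genes above 0 and 11 below. Its median was 0.10 (-0.19 to 0.25 over the fits without 1 tumor), and -0.13 for the 16 members with a mean of at least 5 CPM. In it 4 genes were higher and hold and 1, Sirpa, was lower and holds (21.7% together, against 9.36% of all genes tested). The regulator of MHC class II transcription, Ciita, measured 1.85 ± 0.482 against 6.69 ± 2.67 CPM (SD, n = 3 each), and was the only 1 of the 16 genes of the class II list that was higher and holds, while Ifi30, a thiol reductase of antigen processing, was lower and holds (74.1 ± 6.07 against 44.3 ± 8.96 CPM). Irf1, the transcription factor that carries much of the response, and Gbp5 and Gbp2, guanylate-binding proteins, were picked after their values were seen. Irf1 measured 96.2, 77.6 and 60.9 CPM against 209.6, 180.3 and 126.3 CPM. Gbp5 measured 29.0, 26.9 and 17.6 CPM against 78.1, 53.6 and 48.3 CPM, and Gbp2 229.3, 217.6 and 137.5 CPM against 523.6, 272.6 and 374.3 CPM. In Irf1 and both guanylate-binding proteins midostaurin tumor 2 was the highest of the 6.

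The inducing cytokine and the summed lymphocyte markers overlapped between the groups. Ifng, picked for its role, measured 0.469, 0.687 and 0.616 CPM against 0.655, 0.878 and 0.669 CPM. The 14 T cell markers summed to 40.0 to 58.2 CPM with vehicle and 35.4 to 67.5 CPM with midostaurin, and none of them holds. The 12 NK and cytotoxic markers summed to 88.0 to 103.5 CPM and 60.5 to 145.7 CPM, with the highest sum in midostaurin tumor 2. The part of such cells in the interferon-gamma genes was not tested. The type I interferon list had 28 of 30 members above 0 with a median of 0.29, which was 0.14 without midostaurin tumor 2 and 0.19 without vehicle tumor 3, but only Trim30a, an interferon-induced ubiquitin ligase, holds (62.3 ± 8.54 against 80.9 ± 4.25 CPM, SD, n = 3 each).

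Sensors of DNA and RNA in the cytosol gave a smaller and mixed difference. Of 26 nucleic acid sensing genes tested, 5 were higher and hold and 2 were lower and hold, with a median log2 fold change of 0.22 (0.12 without vehicle tumor 3 and 0.13 without midostaurin tumor 2). Members that hold were 26.9% of the list, against 9.36% of all genes tested. Ifi207, Ifi204 and Ifi211 belong to the PYHIN family, whose HIN domains bind DNA. Ifi207 measured 49.6, 37.3 and 49.0 CPM against 86.3, 97.5 and 75.9 CPM. Ifi204 measured 107.5, 110.9 and 111.2 CPM against 149.9, 137.5 and 149.3 CPM, and Ifi211 34.6, 40.3 and 37.7 CPM against 46.1, 48.7 and 50.3 CPM. The groups do not overlap in any of the 3, although members of this family are near copies and the authors' counting could split their reads. Rnaseh2a, the catalytic subunit of the enzyme that removes RNA from DNA, was lower, at 57.9, 55.9 and 60.6 CPM against 43.9, 40.9 and 46.4 CPM, and its exons overlap the predicted gene Gm49661 on the same strand.

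**Figure D3:**
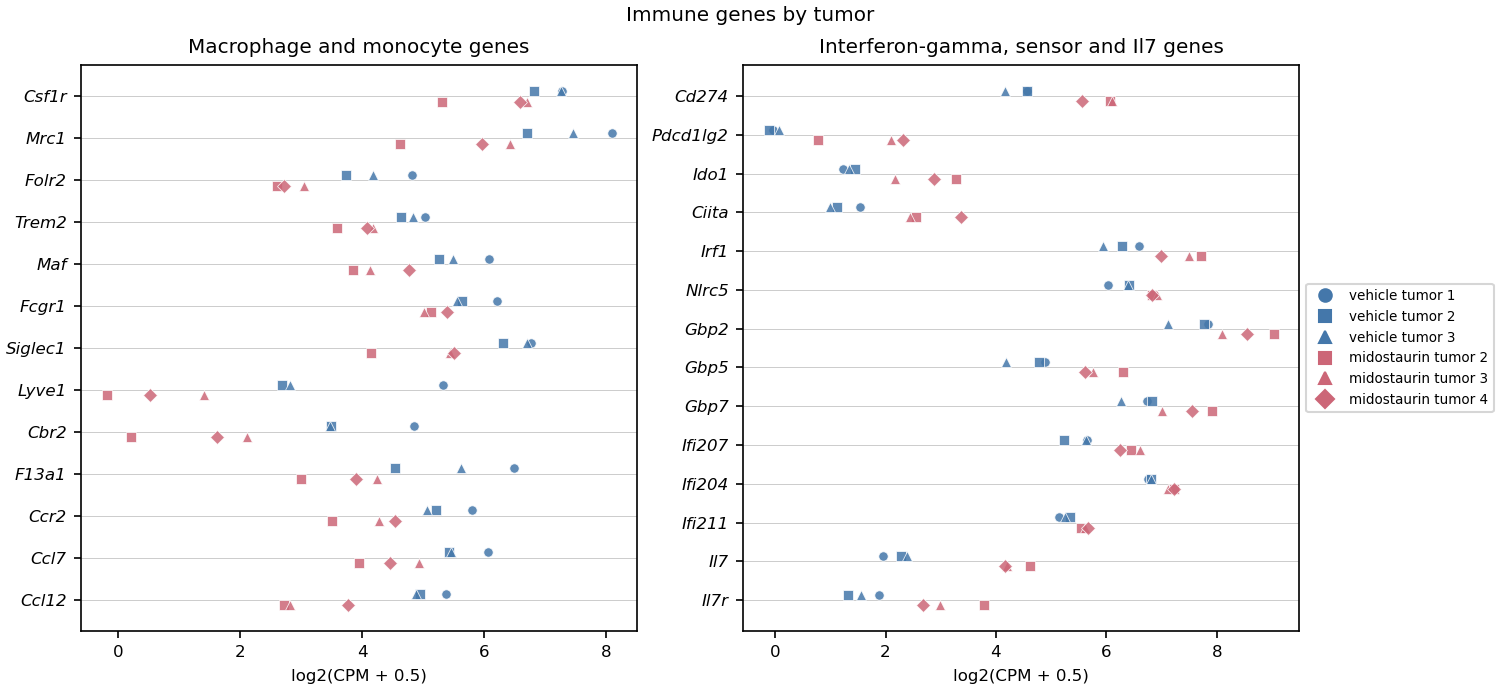
Level in each tumor, as log2(CPM + 0.5), of macrophage and monocyte genes (left) and of interferon-gamma, sensor and interleukin-7 genes (right), with vehicle in blue and midostaurin in red. On the left all red points lie below the blue ones and midostaurin tumor 2 is the lowest for most genes, and on the right all red points lie above the blue ones.

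The upstream sequences of 3 genes of the interferon and sensor lists are shown because they hold a match to the interferon-stimulated element. They are the 250 bases before the gene start on the coding strand, from RefSeq (GRCm38.p6), with that element in capitals. That pattern is GAAA followed by any 2 bases and a second GAAA, searched on both strands, and it can overlap the gamma-activated site TTCNNNGAA. The windows of Ifi207 (chr1:173741810-173742059, minus strand), Ifi211 (chr1:173913047-173913296, minus strand) and Trim30a (chr7:104465194-104465443, minus strand, the window of its second start) each hold 1 match, in Trim30a as the reverse complement.
Ifi207: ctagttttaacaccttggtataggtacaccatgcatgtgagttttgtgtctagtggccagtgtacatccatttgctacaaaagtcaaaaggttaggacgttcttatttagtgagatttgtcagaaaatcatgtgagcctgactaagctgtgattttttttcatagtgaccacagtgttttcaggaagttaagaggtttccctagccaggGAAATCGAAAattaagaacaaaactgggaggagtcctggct
Ifi211: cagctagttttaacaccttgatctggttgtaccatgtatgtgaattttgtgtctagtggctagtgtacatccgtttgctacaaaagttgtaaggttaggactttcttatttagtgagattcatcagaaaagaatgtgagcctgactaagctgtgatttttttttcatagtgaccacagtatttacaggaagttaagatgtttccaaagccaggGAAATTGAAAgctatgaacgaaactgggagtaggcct
Trim30a: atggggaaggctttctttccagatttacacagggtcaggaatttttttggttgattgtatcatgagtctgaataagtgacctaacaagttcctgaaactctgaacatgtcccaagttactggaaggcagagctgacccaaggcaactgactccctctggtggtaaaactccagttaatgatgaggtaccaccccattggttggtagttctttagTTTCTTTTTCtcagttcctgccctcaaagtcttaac

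The windows of Cd274 and Pdcd1lg2 and that of the other Trim30a start have none. Windows of Kcnab1, which was higher and holds, and of the complement regulator Cd59a, which was lower and holds, have the element. So do windows of the NK cell gene Eomes and of Spp1. Of the 10956 tested genes with a window in the RefSeq table, 3.41% hold the interferon-stimulated element, against 5.01% of the 599 higher genes that hold without any single tumor and 1.40% of the 499 lower ones. The gamma-activated site was in 7.38% of all windows, 6.34% of the higher and 6.01% of the lower set. These shares describe matches of letters, not binding, and were not tested.

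The interleukin-7 receptor gene moved in the same direction as its ligand. Il7r, the alpha chain of the receptor, measured 3.18, 2.01 and 2.44 CPM with vehicle and 13.2, 7.39 and 5.89 CPM with midostaurin, and was at 0 in the cultured cells. Il11, a cytokine of the IL-6 family, measured 10.4, 21.8 and 18.1 CPM against 27.4, 49.4 and 63.0 CPM, and Il18bp, a secreted decoy for IL-18, 14.7 ± 0.818 against 20.8 ± 3.19 CPM (SD, n = 3 each). Of the 28 cytokine and receptor genes tested, 4 were higher and hold (14.3%, against 5.37% of all genes tested), Il7 being the 1 past the threshold, and none was lower and holds.

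Macrophage genes were lower with midostaurin. Of 18 macrophage markers tested, 16 had a log2 fold change below 0, and 11 had all 3 midostaurin tumors below all 3 vehicle tumors, which was so for 13.6% of all genes tested. Folr2, Trem2, Maf, Fcgr1 and Mrc1 were lower and hold (3.99% of all genes did), and Gpnmb was higher and holds. The median was -0.83, between -1.04 and -0.51 (the latter without midostaurin tumor 2) over the fits without 1 tumor, and no marker passed the threshold. The summed markers overlapped, at 1855 to 3239 CPM with vehicle and 1002 to 2106 CPM with midostaurin.

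By gene, Folr2, a folate receptor of resident macrophages, measured 27.8, 12.9 and 17.5 CPM with vehicle and 5.62, 7.75 and 6.08 CPM with midostaurin. Maf, a transcription factor of mature macrophages, measured 67.3, 37.9 and 44.4 CPM against 13.9, 17.0 and 26.7 CPM. Csf1r, the receptor for the macrophage growth factor CSF1, measured 154.1, 112.4 and 152.7 CPM against 39.2, 103.9 and 95.5 CPM. Midostaurin tumor 2 was the lowest in Maf and Csf1r, and Csf1r does not hold when single tumors are left out. Gpnmb, a glycoprotein of lysosome-rich cells that is also high in the cultured line (1141 CPM), went the other way, at 45.1, 87.7 and 62.3 CPM against 161.7, 114.6 and 132.4 CPM.

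Genes of resident and perivascular macrophages outside the macrophage list were among the lower genes with the widest gaps. Lyve1, a hyaluronan receptor of lymphatic endothelium and of some macrophages (chromosome 7, 110850607 to 110863239), measured 39.6, 5.95 and 6.57 CPM against 0.378, 2.15 and 0.941 CPM. Its log2 fold change of -3.93 was -2.45 without vehicle tumor 1. Cbr2, a carbonyl reductase found in such macrophages, measured 28.3, 10.7 and 10.7 CPM against 0.655, 3.85 and 2.57 CPM. Vehicle tumor 1 was the highest for Folr2, Maf, Lyve1 and Cbr2, and this tumor also had the most red cell and fibroblast transcripts. Siglec1, the macrophage adhesion receptor sialoadhesin, measured 108.4, 78.7 and 103.8 CPM against 17.2, 43.1 and 45.0 CPM.

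Ligands and the receptor of one chemokine axis were lower. Ccl12 and Ccl7 encode ligands of CCR2, the receptor that brings monocytes out of the blood. Ccl12 measured 41.1, 30.3 and 28.9 CPM against 6.07, 6.57 and 13.1 CPM, and Ccl7 66.4, 42.6 and 43.5 CPM against 14.97, 30.2 and 21.4 CPM. Ccr2 itself measured 55.6, 36.4 and 32.995 CPM against 10.9, 18.9 and 22.8 CPM. The groups do not overlap in any of these genes. The 10 monocyte markers did not follow as a list, since 5 were above 0 and 5 below. Their median was 0.07 (-0.11 to 0.60 over the fits without 1 tumor). Their sums were 1883 to 3306 CPM with vehicle and 3086 to 4069 CPM with midostaurin. These sums were mostly Fn1 (1644, 1678 and 3028 CPM against 2963, 2711 and 3766 CPM), so they say little about the other members. Nor did the chemokine list follow, with 16 of 23 genes above 0 and a median of 0.39, which was -0.17 without midostaurin tumor 3, and Ccl12 and Ccl7 were the only ones of it that hold.

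Genes nearly silent in cultured CT26 cells were more frequent in the lower set than in the higher. Cultured cells hold no host cells, and the 3 libraries of cells kept in the solvent DMSO served as the reference; they were scaled apart from the tumors, so only shares are compared. Of the 10991 tested genes with a mean of at least 5 CPM in tumors, 349 (3.18%) were under 0.1 CPM in culture. The same was true of 5 of 764 higher genes that hold (0.654%) and 44 of 516 lower ones (8.53%). The 5 were Il7r, Fat2, Pthlh, Hcar2 and Gm4841. The 44 include Lyve1, Folr2, Fcgr1, F13a1, Ccr2, Ccl12, Ccl7, Sirpa and Ighm, and also Sncg. Without the limit of 5 CPM in tumors, 9.88% of all genes tested were under 0.1 CPM in culture. The shares were then 3.36% of the higher genes that hold and 13.4% of the lower ones, so the lower set was nearer to all genes. Hcar2, Gm4841 and Gas6 (42.5, 17.1 and 25.7 CPM against 2.95, 6.87 and 10.2 CPM), a ligand of the receptor kinases AXL and MERTK, were picked after their values were seen.

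**Figure D4:**
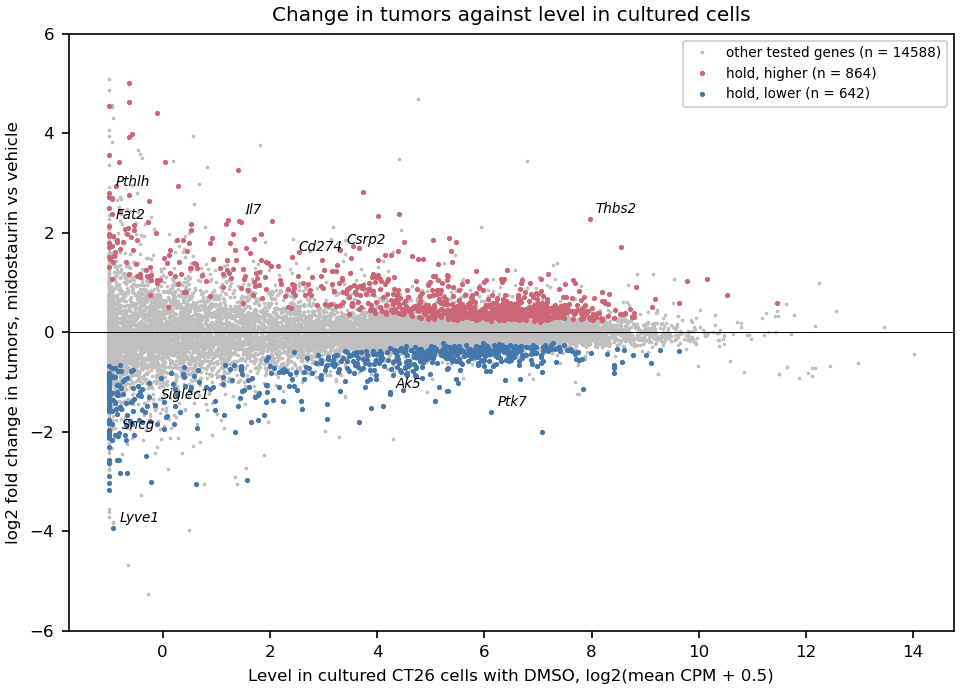
Log2 fold change in tumors (midostaurin against vehicle) of each tested gene by its level in DMSO-treated cultured cells, as log2(mean CPM + 0.5), with the 864 higher genes that hold in red, the 642 lower ones in blue and all others in grey. Most coloured points lie at high levels in culture, and at the left edge, where culture levels are near 0, stand Pthlh and Fat2 above 0 and Lyve1 and Sncg below.

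Genes of TGF-beta and BMP signalling were higher in part. TGF-beta family ligands act through SMAD proteins, and inhibitory SMADs and SMURF ligases restrain them. Of 28 genes tested, 7 were higher and hold and 1 was lower and holds, with a median of 0.21 (0.15 to 0.25 over the fits without 1 tumor). Members that hold were 28.6% of the list, against 9.36% of all genes tested. Inhba, the subunit of the ligand activin A, measured 20.7, 23.5 and 15.6 CPM against 34.3, 82.0 and 55.9 CPM. Ltbp2, a latent TGF-beta binding protein, measured 10.9, 8.70 and 6.68 CPM against 18.4, 23.9 and 21.5 CPM. The inhibitory Smad7, itself a TGF-beta target, measured 28.2, 25.6 and 24.9 CPM against 41.2, 46.0 and 45.0 CPM (log2 fold change 0.75 ± 0.09, SE, adjusted p = 0.0654 by edgeR), and Smurf1 135.3 ± 15.4 against 220.8 ± 33.2 CPM (SD, n = 3 each). The BMP-restraining Smad6, picked after its values were seen, went the other way (4.26 ± 1.69 against 1.65 ± 0.272 CPM).

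Pthlh and Runx2, regulators of bone-like differentiation, were higher along with these. Pthlh, which encodes parathyroid hormone-related protein (chromosome 6, 147252101 to 147264183), measured 3.55, 7.16 and 4.13 CPM against 35.5, 42.9 and 25.5 CPM, or 2.81 ± 0.32 (SE) as a log2 fold change, with adjusted p = 0.0654 by edgeR, and was at 0 in the cultured cells. Runx2, the master transcription factor of osteoblasts, measured 61.9, 71.4 and 69.3 CPM against 122.7, 130.4 and 111.9 CPM. They were the only members of the 13 osteogenic genes tested that hold (15.4%, against 5.37% of all genes tested that were higher and hold). As a list the osteogenic genes were mixed, with 8 above 0 and 5 below. Their median was 0.23 (0.10 to 0.62 over the fits without 1 tumor). Collagens did not hold as a list. Of 21 tested, 17 were below 0, but the median of -0.53 ranged from -0.61 to 0.25 when single tumors were left out, the latter without vehicle tumor 1. Col6a1 (185.3, 101.1 and 109.6 CPM against 57.1, 72.8 and 77.1 CPM) and Col16a1 (245.2 ± 17.96 against 189.3 ± 16.7 CPM) were lower and hold.

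The aryl hydrocarbon receptor and some of its targets were higher. The receptor, AHR, is a ligand-activated transcription factor that pairs with ARNT to induce enzymes of foreign compound metabolism. Of 15 xenobiotic sensing and drug handling genes tested, 9 were above 0 and 6 below, with a median of 0.18 (0.08 without midostaurin tumor 3). The 11 with a mean of at least 5 CPM had a median of 0.52. Ahr, Arnt, Aldh3a1 and Tiparp were the only members that hold (26.7%, against 5.37% of all genes tested that were higher and hold). Ahr measured 23.5, 19.2 and 34.4 CPM with vehicle and 75.5, 86.5 and 52.3 CPM with midostaurin, and Arnt 78.0 ± 6.55 against 101.9 ± 7.78 CPM (SD, n = 3 each). Aldh3a1, an aldehyde dehydrogenase among its known targets, measured 8.41, 3.17 and 10.2 CPM against 127.8, 48.6 and 32.2 CPM, with midostaurin tumor 2 the highest. Tiparp, a target that represses the receptor, measured 68.8, 115.3 and 59.2 CPM against 209.0, 186.0 and 115.4 CPM, so vehicle tumor 2 lay just under the lowest treated tumor. The usual target Cyp1b1, picked for its role, did not separate the groups (4.49, 0.872 and 0.0456 CPM against 0.126, 1.88 and 2.76 CPM).

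Transcripts of the receptor kinases that midostaurin is reported to inhibit, and of their ligands, gave no gene that holds among 22 tested, and their median was -0.09 (0.12 without midostaurin tumor 2). Kit measured 5.43 ± 0.984 against 6.05 ± 0.828 CPM, a difference smaller than the spread, and Flt3 stayed at or below 1.24 CPM in all 6 tumors. Kit and Flt3 were picked as reported targets. The 20 genes tested of the protein kinase C list had a median of -0.09 (-0.15 to 0.04 over the fits without 1 tumor). Of these, 10% hold in either direction, close to the 9.36% of all genes tested, and no isoform is among them. Pdpk1, the kinase that primes protein kinase C, was higher and holds (55.7 ± 4.42 against 73.1 ± 1.71 CPM, SD, n = 3 each). Dgkz, which removes its activator diacylglycerol, was lower and holds (130.6 ± 17.3 against 96.8 ± 5.37 CPM).

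Genes switched on within minutes of growth factor signalling were higher rather than lower. Of 24 immediate early and AP-1 genes, 19 were above 0 with a median of 0.43 (0.17 without midostaurin tumor 3), and Egr1, Egr2, Egr3, Nr4a1 and Fosl2 hold. Egr3 measured 4.74, 8.19 and 6.29 CPM against 24.1, 15.4 and 20.7 CPM, and Nr4a1, an orphan nuclear receptor, 32.3, 30.1 and 31.6 CPM against 47.4, 60.7 and 46.3 CPM. Of 23 genes that report ERK output, Spry2, Spry4, Dusp4 and Phlda1, all feedback or response genes of that pathway, were higher and hold, with a list median of 0.21 (0.32 without vehicle tumor 2). Members that were higher and hold were 20.8% of the immediate early list and 17.4% of the ERK list, against 5.37% of all genes tested. Phlda1 measured 112.1, 108.9 and 80.6 CPM against 222, 301.3 and 156.6 CPM. The 12 dissociation and ischemia-like stress genes, a list of signs of tissue handling, had a median of -0.16 with 10 of 12 below 0. Without vehicle tumor 3 that median was 0.01. Bag3, a co-chaperone, was higher and holds, while Hspd1 was lower and holds (16.7% together, against 9.36% of all genes tested).

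Lysosomal genes gave the pathway list whose median moved least over the 6 fits without 1 tumor. Of 30 tested, 10 were higher and hold and 2 were lower and hold (40% together, against 9.36% of all genes tested). The median was 0.16 (0.16 to 0.18). Among the 10 were the transcription factors of lysosome formation Mitf (26.2, 24.98 and 27.9 CPM against 38.6, 53.3 and 43.2 CPM) and Tfe3 (63.6, 71.3 and 69.0 CPM against 86.2, 92.9 and 84.999 CPM), and the cholesterol carrier Npc2 (313.0 ± 25.4 against 410.9 ± 17.5 CPM, SD, n = 3 each). Autophagy genes gave 5 of 25 that were higher and hold (20%, against 5.37% of all genes tested). Among them Atg7, which activates the conjugation of ubiquitin-like ATG proteins, measured 32.9, 37.7 and 34.9 CPM against 50.3, 50.5 and 45.3 CPM. The 24 fatty acid synthesis and oxidation genes had a median of -0.02 with 13 below 0, but 3 of them were higher and hold, among them the desaturase Scd1, which measured 289.0, 362.1 and 368.2 CPM against 635.0, 541.5 and 530.1 CPM.

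Genes of nucleotide balance were lower beyond Ak5. Of 20 tested, 15 were below 0, with a median of -0.30 (-0.35 to -0.23). The members that hold were 7, all lower (35%, against 3.99% of all genes tested). Nme1, a nucleoside diphosphate kinase, measured 126.7, 126.6 and 125.1 CPM against 91.5, 97.7 and 102.7 CPM, and Guk1, the guanylate kinase, 27.2, 25.8 and 24.99 CPM against 20.4, 20.6 and 18.8 CPM. Exons of Nme1 overlap those of Gm20390 on the same strand. Ak5 is the only one of the 7 that passed the threshold.

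Serine synthesis and protein folding genes were lower as well. Phgdh and Psat1, successive enzymes from a glycolytic intermediate to serine, measured 671.5, 661.0 and 554.7 CPM against 443.5, 323.7 and 458.2 CPM, and 509.1, 457.3 and 383.9 CPM against 324.3, 258.2 and 315.8 CPM. Shmt2, which turns serine into one-carbon units in mitochondria, measured 461.8 ± 54.1 against 290.9 ± 67.3 CPM (SD, n = 3 each). Midostaurin tumor 3 was the lowest in all 3 of these. The rest of the ATF4 list did not follow, its median of -0.09 ranging from -0.34 (without midostaurin tumor 4) to 0.05 (without midostaurin tumor 3). Of 21 unfolded protein response genes, 16 were below 0. Sdf2l1, Manf and Pdia6, which act on proteins in the endoplasmic reticulum, were lower and hold (14.3%, against 3.99% of all genes tested). Sdf2l1 measured 44.8, 25.1 and 30.1 CPM against 14.1, 12.9 and 16.5 CPM.

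Cell cycle genes were slightly lower. Of 24 mitosis genes, 21 were below 0 with a median of -0.21 (-0.10 without vehicle tumor 1 and -0.14 without midostaurin tumor 3). Cenpf, Cenpe and Birc5 were lower and hold (12.5%, against 3.99% of all genes tested). Of 24 replication genes, 22 were below 0 with a median of -0.28 (-0.17 and -0.15 without the same tumors). Only Tyms, thymidylate synthase, was lower and holds (54.0 ± 5.71 against 40.6 ± 4.85 CPM, SD, n = 3 each). That is 4.17% of the list, close to the 3.99% of all genes tested. Mki67, the proliferation antigen, picked for its role, measured 266.3 ± 11.0 against 271.7 ± 1.57 CPM, a difference smaller than the spread. Nuclear genes of the respiratory chain were lower in 22 of 30, with a median of -0.09 (-0.05 without vehicle tumor 1). Ndufa4, Atp5o, Cox5b and Uqcrc1 were lower and hold (13.3%, against 3.99% of all genes tested). The 13 mitochondrially encoded mRNAs were all below 0, but none of them separated the groups, and they summed to 20602 to 28610 CPM with vehicle and 10878 to 24797 CPM with midostaurin. The part of this difference in the other lists was not tested.

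**Figure D5:**
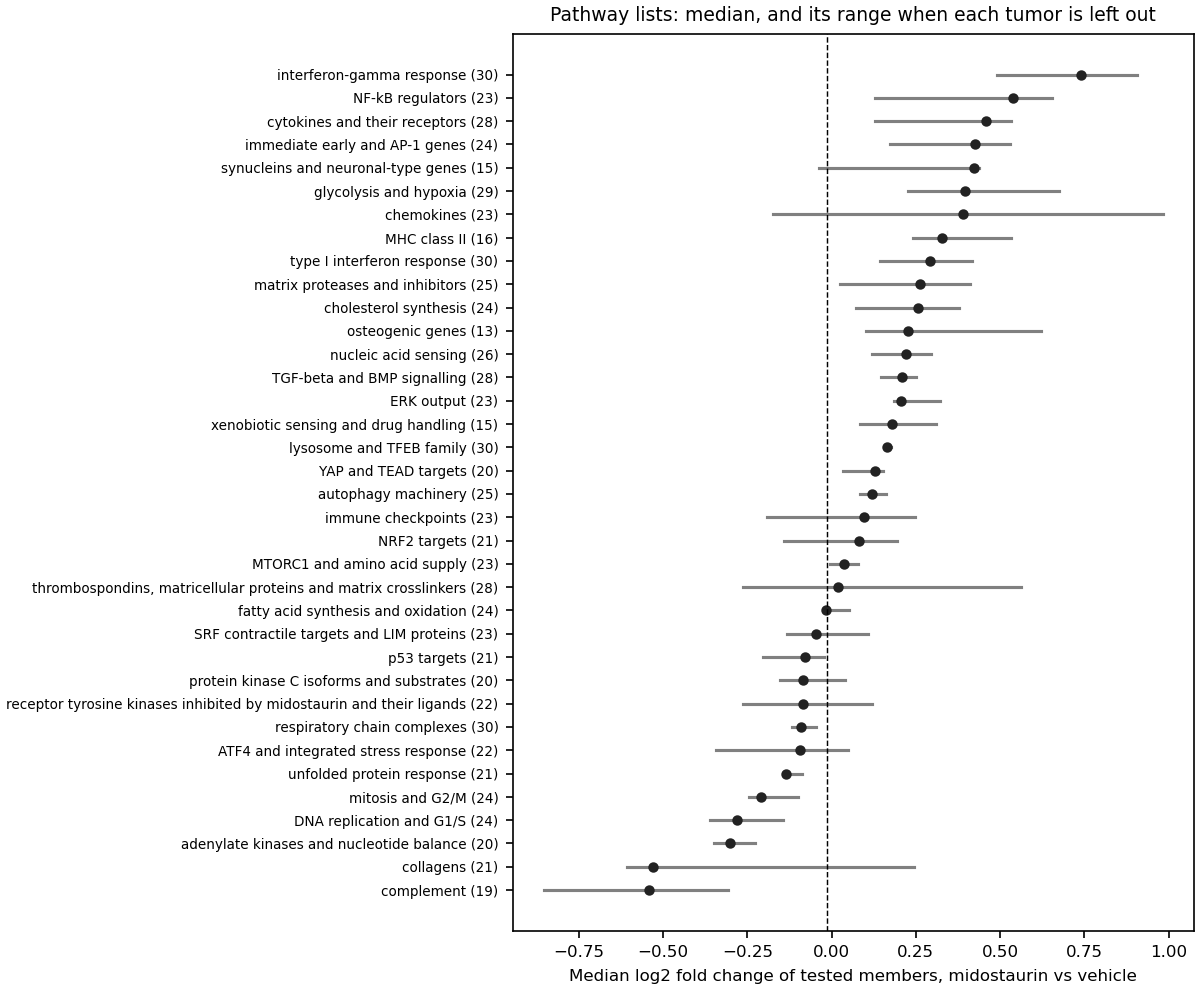
Median log2 fold change of the tested members of each pathway list (points, with the number of members in brackets) and its range over the 6 fits that leave 1 tumor out (bars), beside the median of all genes tested (dashed line, -0.01). The interferon-gamma list has the highest median (0.74) and the complement list the lowest (-0.54). The bars of many lists cross 0, among them the chemokine, collagen, thrombospondin, ATF4, protein kinase C and immune checkpoint lists.

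Some of the largest fold changes rested on single tumors. Cxcl1, a neutrophil chemokine, measured 12.3, 14.6 and 6.04 CPM with vehicle and 13.004, 832.1 and 8.28 CPM with midostaurin. S100a9, S100a8, G0s2 and Il1b, genes of neutrophils and inflammation, were likewise highest in midostaurin tumor 3, with S100a9 at 360.1 CPM there and at most 10.9 CPM elsewhere. Without that tumor the log2 fold change of Cxcl1 went from 4.69 to -0.041. The globin genes Hba-a1, Hba-a2, Hbb-bs and Hbb-bt were highest in vehicle tumor 1, with Hba-a1 at 559.5 CPM there, 136.0 CPM in vehicle tumor 3 and 4.71 to 29.9 CPM with midostaurin. None of these genes holds. The 29 glycolysis and hypoxia genes, 25 of them above 0 with a median of 0.39 (0.23 without vehicle tumor 3), also had no member that holds.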

How the data were processed

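RNA of 3 vehicle and 3 midostaurin tumors was compared, with 3 libraries of DMSO-treated cultured cells as a reference for level. The deposited table holds integer counts for 55335 Ensembl identifiers, which the authors made, per the submitters' processing notes, with FastQC 0.11.2, Bowtie2 2.3.4 and RSEM on mm10. The RSEM version, the annotation and the strand setting are not given in the sources used here, and the integers may be rounded RSEM estimates. Symbols were matched for 55154 identifiers. All value columns were mapped to a group.

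Counts were filtered (filterByExpr), TMM-scaled and tested with edgeR 4.0.16 (R 4.3.3, quasi-likelihood F-test, Benjamini-Hochberg adjusted p of 0.05). CPM and standard errors were computed here. The test was checked on simulated data. Each tumor was left out in turn with the genes tested kept. Other alternatives were DESeq2 1.42.0 and its size factors, limma-voom (limma 3.58.1), no filter, a stricter p and the replicate number as a block. Depth was 33399701 to 48109497 counts per tumor, with 3 tumors per group.

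The genes to describe and the 54 gene lists were chosen with earlier results of these data known. Genes named are those past the threshold, the 15 per direction with the widest gap among genes that hold at a mean of at least 5 CPM, up to 4 members of each list without overlap (or the member with the smallest p), and the 5 per direction with the largest change among genes that do not hold. Predicted genes and receptor segments were left out.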

Additional observations from a re-analysis of the deposited data

How the results depend on the processing

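The count past the threshold of edgeR's quasi-likelihood test depended most on the processing. From 7 genes it went to 0 with no low-count filter, 1447 with DESeq2, 16 with limma-voom and 0 to 1 when a tumor was left out (Csrp2 without vehicle tumor 1, Raver1 without vehicle tumor 2, Abca1 without midostaurin tumor 3, Raver1 being named after its values were seen); without the filter 27360 genes were tested. The cause of the other differences was not tested. Of the 1506 genes that hold, 383 did so at an unadjusted p of 0.01 in every fit, and the rule gave 1499 to 1737 genes under the other alternatives run. The genes without overlap numbered 4376, and 5695 to 6266 when a tumor was left out.

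With the replicate block, numbers 2 and 3 being the only ones shared, no gene passed the threshold, and the 7 genes had adjusted p (edgeR) of 0.340 to 0.377. That fit estimates nearly as many terms as there are libraries, so it could hardly have called a gene. The deviations of same-numbered tumors correlated across genes at 0.15 and -0.19. With 3 tumors per group these values cannot show whether same-numbered tumors share a batch or a pairing.

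Of 180 named genes, 177 kept their sign under every alternative run. Over the fits without 1 tumor the log2 fold change of Cxcl1 ranged from -0.041 to 5.26, that of S100a8 from -0.21 to 4.65 and that of Myh4, a muscle myosin, from -9.00 to 0.73, and with the replicate block Myh4 was at 1.42. The median kept its sign in 32 of the 54 lists whichever tumor was left out. Counts near 0, as for Pdcd1lg2 with vehicle, limit the precision of single folds.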

Other observations

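Genes of chromosome 18 were higher as a group in the midostaurin tumors. Of the 270 genes there with a mean of at least 5 CPM, 74.8% had a log2 fold change above 0, the median was 0.18, and 20.7% were higher and hold without any single tumor, against 6.95% of all 10991 such genes, 12.3% on chromosome 14 and 11.2% on chromosome 6. The median lay between 0.14 and 0.22 whichever tumor was left out. Relative to the mean of the 6 tumors, the median level of these genes was -0.162, -0.0455 and -0.0340 on the log2 scale in the vehicle tumors and 0.0746, 0.101 and 0.0639 in the midostaurin tumors. In the first 50 Mb of the chromosome (158 genes, a boundary chosen after the values were seen) the median was 0.25 and 28.5% were higher and hold, against 0.05 and 9.82% beyond it (112 genes). On chromosome 19 (411 genes) the median was -0.10, and on chromosome X (331 genes) 0.08. These differences between chromosomes were not tested.

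Genes of nerve cell type moved in both directions. The neurofilament genes Nefm (12.3, 12.3 and 18.2 CPM with vehicle and 81.4, 41.8 and 35.3 CPM with midostaurin) and Nefl (14.9, 8.04 and 17.9 CPM against 69.9, 28.9 and 33.8 CPM) and the growth cone gene Gap43 (5.75, 6.32 and 5.56 CPM against 10.2, 9.54 and 14.8 CPM) were higher and hold, while Sncg was lower. Midostaurin tumor 2 was the highest for both neurofilament genes. Vldlr, a lipoprotein receptor, measured 105.1, 157.0 and 103.5 CPM against 404.1, 243.5 and 221.5 CPM, and Plin4, a lipid droplet coat protein, 10.4, 18.2 and 12.9 CPM against 61.5, 50.3 and 27.2 CPM.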
